A study of Drosophila mettleri with 18 samples.

Results

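In Drosophila mettleri larvae, 60 assembled transcripts stood apart on saguaro cactus: 30 lay above both other foods on saguaro and 30 lay below. Their mean levels on prickly pear cactus and on lab food differed by less than 0.8 (log2). That limit was not far under the members' median saguaro distance of 0.91. They are 60 of the 15947 features in the deposited count table. They were chosen from the counts of all 18 libraries, on the scale log2(normalised count + 8), where a count is divided by the median ratio of its library to the geometric mean over libraries. The 100 features with the highest mean were set aside, and the means on lab food and prickly pear had to lie within 0.8 of each other. The level on saguaro had to be above both other foods, or below both, in at least 5 of 6 strains, and the 60 features whose saguaro mean lay farthest from the nearer of the other means were kept. The foods chose the members, so their differences between foods are given as a description, without a test.

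Larvae of 2 populations were used, Santa Catalina Island and Sonoran, with 3 strains each. Santa Catalina replicate 1 is strain C-M, replicate 2 is C-7 and replicate 3 is C-9. Sonoran replicate 1 is strain T-22, replicate 2 is T-27 and replicate 3 is T-28. Each strain was reared on saguaro cactus, on coastal prickly pear cactus and on lab food (Drosophila 4-24 Instant food), giving 6 groups of 3 libraries, and each library was a pool of 10 larvae aged 8 days. The labels do not state how long a strain had been in culture or from how many flies it was founded. In pooled larvae, fewer cells of a type and less RNA per cell cannot be told apart. The labels do not say whether a strain's 3 pools were reared together, so the spread between libraries holds that between strains and that between pools.

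As background, D. mettleri is a cactophilic fly of the Sonoran Desert region whose larvae develop in soil soaked by the juice of rotting cacti. Saguaro, a columnar cactus with isoquinoline alkaloids, grows in the Sonoran Desert and not on Santa Catalina Island, where prickly pears, cacti with flat stem segments, are found. Insects deal with plant toxins largely through gut and fat body enzymes such as cytochrome P450s, glutathione S-transferases and esterases. The features carry assembly names only, so no member could be assigned to these or other families, and no sequence is shown.

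Few transcripts fitted this pattern. Of the 15847 features left after the most abundant were set aside, 12849 had prickly pear and lab food within the limit and 736 of those were consistent in at least 5 of 6 strains, 354 above and 382 below on saguaro. The even split of the 60 depended on the setting: the farthest 60 were 14 above and 46 below with library totals in place of the median-ratio factors, and 41 above and 19 below without Sonoran replicate 3. The same rule with prickly pear as the food set apart left 5144 features, and with lab food set apart, so that the cacti lay close together, 1521. The 60 farthest members had a median distance of 0.91 (log2) on saguaro, against 2.87 for the 60 farthest on prickly pear and 1.38 for the 60 farthest on lab food. The distances of the saguaro members ran from 3.25 down to 0.72, and 18 of 60 exceeded 1, 9 in each direction. The last member inside the limit of 60 was comp35666_c0, at a distance of 0.7215, and the first feature outside was comp36863_c0, at 0.7186. For comp35666_c0 the prickly pear and lab food means lay 0.7573 apart, more than its distance. comp35666_c0 averaged 29.6 ± 14.4 CPM (counts scaled to a common library total, with edgeR's TMM factors) on saguaro, against 84.6 ± 46.6 CPM on prickly pear and 45.9 ± 12.2 CPM on lab food (SD, n = 6 each). comp36863_c0 averaged 35.7 ± 11.1 CPM on saguaro, against 20.5 ± 3.19 CPM on prickly pear and 17.0 ± 4.03 CPM on lab food (SD, n = 6 each).

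**Figure D1:**
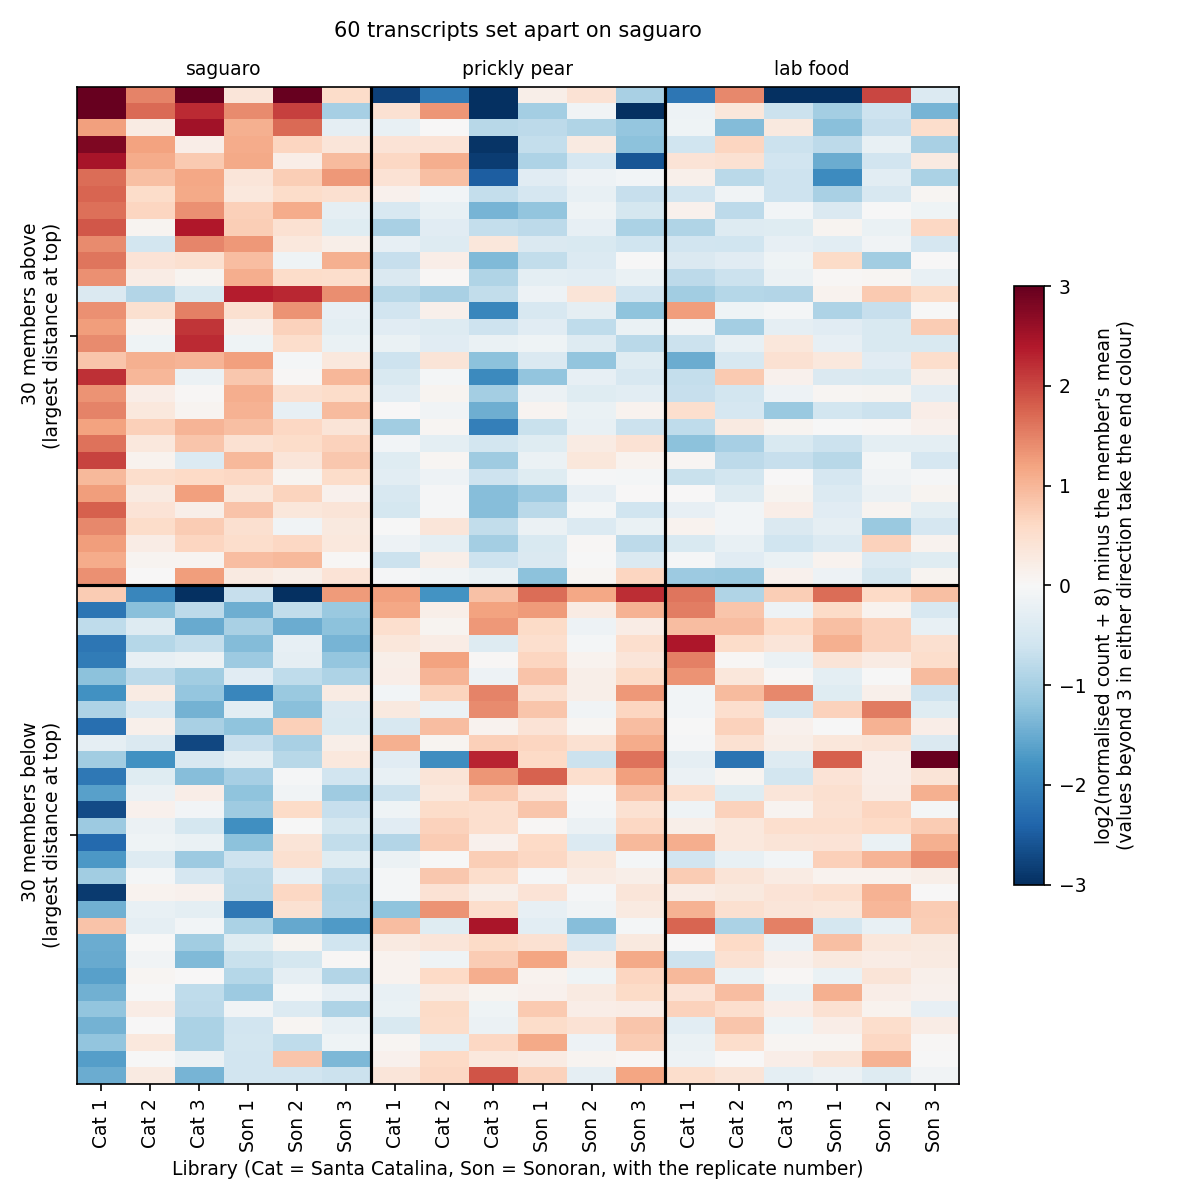
The 60 members (rows) in the 18 libraries (columns), as log2(normalised count + 8) minus the member's own mean over the libraries. Red is above the mean and blue below it; the 30 members above on saguaro are in the upper block and the 30 below in the lower block. The Santa Catalina replicate 1 library on saguaro shows the deepest colours and the Santa Catalina replicate 2 library on saguaro pale ones.

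Levels in CPM are compared for a transcript between libraries, not between transcripts, because lengths are not known. comp31297_c0 had the largest distance of all. On saguaro it was at 78.8, 21.6 and 135.9 CPM in Santa Catalina larvae and at 9.48, 134 and 11.1 CPM in Sonoran larvae. On prickly pear it was at 0.457, 1.11 and 0.0927 CPM in Santa Catalina and at 8.34, 10.2 and 3.28 CPM in Sonoran, and on lab food at 1.07, 20.3 and 0.170 CPM in Santa Catalina and at 0.301, 30.5 and 5.23 CPM in Sonoran. The saguaro level was the highest of the 3 foods in all 6 strains, but the libraries of the foods overlapped, since strains C-7 and T-27 held 20.3 and 30.5 CPM on lab food. The mean on saguaro was 65.2 ± 59.8 CPM, against 3.92 ± 4.34 CPM on prickly pear and 9.59 ± 12.8 CPM on lab food (SD, n = 6 each), which is 16.6 and 6.8 times as much. The gap between saguaro and the nearer food was 5.59 (log2) in C-M and 7.40 in C-9, yet 0.05 in C-7 and 0.18 in T-22.

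comp38854_c0 came next among the members above. It was at 1911, 672 and 953 CPM on saguaro in Santa Catalina larvae and at 548, 839 and 104 CPM in Sonoran larvae. On prickly pear it was at 266, 479 and 23.1 CPM in Santa Catalina and at 101, 195 and 13.5 CPM in Sonoran, and on lab food at 179, 254 and 129 CPM in Santa Catalina and at 99.8, 132 and 76.9 CPM in Sonoran. Saguaro was highest within every strain, and 5 of the 6 saguaro libraries lay above all 12 others; the exception was Sonoran replicate 3. The mean on saguaro, 837.8 ± 602.5 CPM, was 4.66 times that on prickly pear (179.6 ± 176.5 CPM) and 5.78 times that on lab food (145.1 ± 63.5 CPM; SD, n = 6 each). comp36326_c2 held the most counts of the members above. It ranged from 795.6 to 2228 CPM on saguaro, 508.5 to 1054 CPM on prickly pear and 397.9 to 903 CPM on lab food, so the foods overlapped. It averaged 1342 ± 488 CPM on saguaro, against 760.5 ± 179 CPM on prickly pear and 675.9 ± 175.7 CPM on lab food (SD, n = 6 each), and saguaro was again highest in all 6 strains.

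Among the members below, comp39278_c6 had the largest distance and comp35036_c0 the next. comp39278_c6 was at 65.4, 10.0 and 1.37 CPM on saguaro in Santa Catalina larvae and at 24.9, 0.641 and 101 CPM in Sonoran larvae. On prickly pear it was at 90.9, 10.6 and 73.9 CPM in Santa Catalina and at 133, 94.7 and 188.5 CPM in Sonoran, and on lab food at 122, 21.1 and 67.8 CPM in Santa Catalina and at 131, 60.8 and 76.2 CPM in Sonoran. Its distance came mainly from strains C-9 and T-27, which held 16 and 4 counts on saguaro, while T-28 was no lower on saguaro than on lab food. comp35036_c0 was far more even. It was at 52.6, 106.6 and 145.6 CPM on saguaro in Santa Catalina and at 91.6, 150.1 and 119 CPM in Sonoran, and every other library lay above these, at 270.8 to 621.6 CPM on prickly pear and 178.5 to 714 CPM on lab food. Its mean was 111 ± 36.4 CPM on saguaro, against 470.4 ± 146 CPM on prickly pear and 367.7 ± 195.8 CPM on lab food (SD, n = 6 each), and it was also the member below with the most counts.

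**Figure D2:**
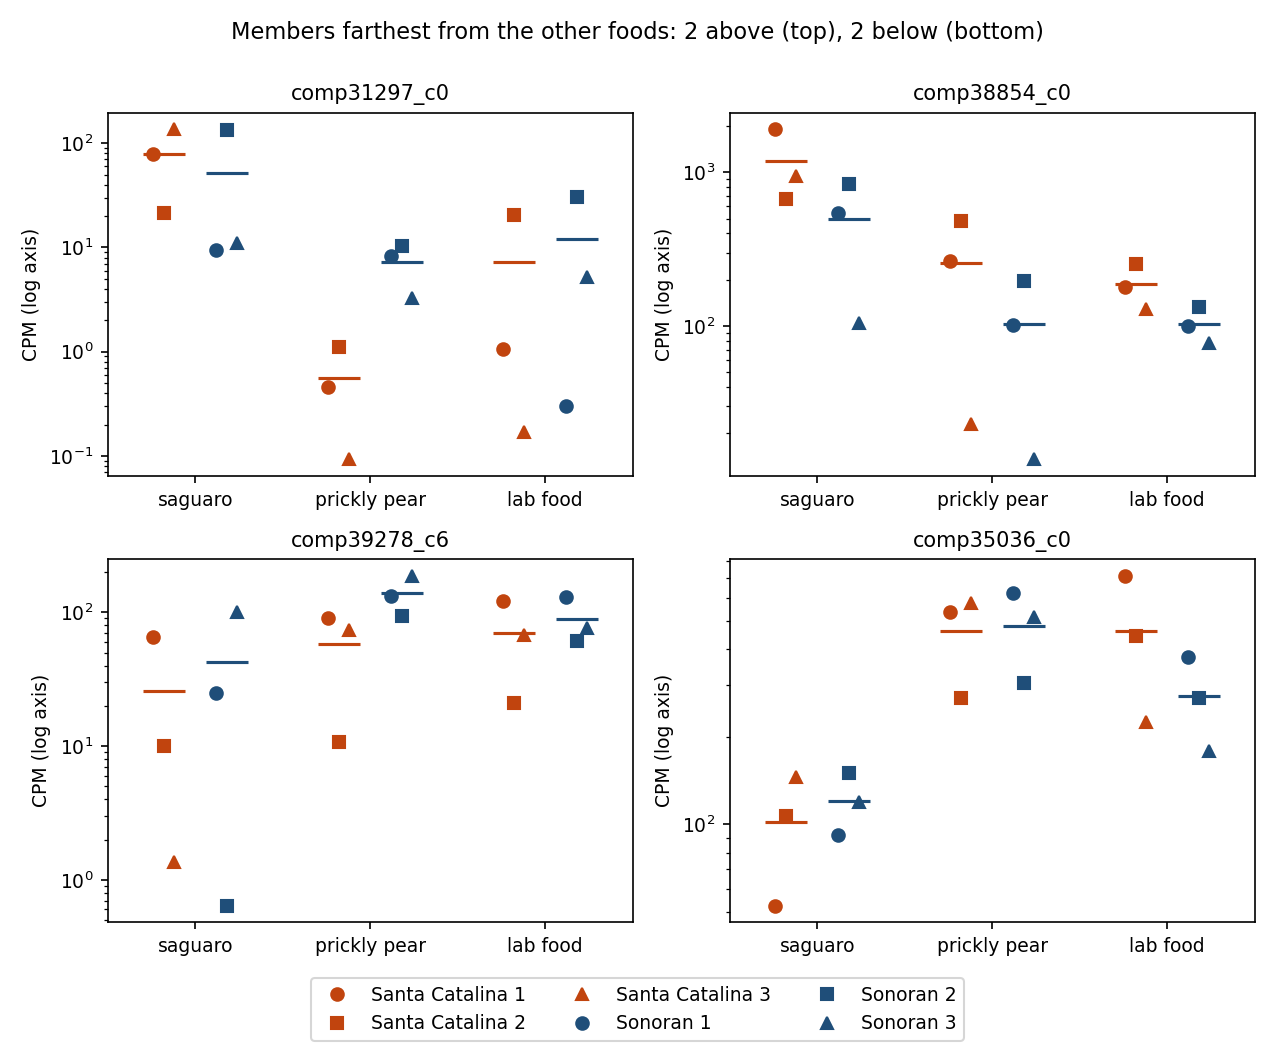
CPM (log axis) of the 2 members farthest above (top row) and the 2 farthest below (bottom row) on saguaro, prickly pear and lab food. Each point is a library, its shape gives the replicate (strain), colours give the population and bars are the means of 3 libraries. Only comp35036_c0 has all 6 saguaro libraries, at 52.6 to 150.1 CPM, outside the range of the 12 others.

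All 6 saguaro libraries lay above or below all 12 others for 8 of the 60 members, 5 above and 3 below, and for 0.104% of the 12514 features that passed the filter on low counts, and since these values chose the members, nothing is read from that share. Within strains, 26 of 60 members had saguaro outermost in all 6 strains, 15 above and 11 below, and 34 in 5 strains, the fewest that the rule allows. The spread between strains was wider on saguaro than on the other foods: the median SD over the 6 libraries was 0.67 (log2) on saguaro, 0.50 on prickly pear and 0.44 on lab food for the members, beside 0.38, 0.27 and 0.31 for all features that passed the filter. The order in which saguaro had the widest spread thus held for all features too. The members rested on a fair number of reads, with a median over members of 32.6 CPM, and 9 of 60 averaged under 5 CPM.

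Among the members, the size of the saguaro difference varied between strains. The rule used these same values, and no gaps by strain were computed over all features. The gaps are thus a description of the members, and no trait of a strain is read from them. The median gap between saguaro and the nearer other food, over the 60 members and taken in each member's own direction, was 1.45 (log2) in Santa Catalina replicate 1, 0.29 in replicate 2 and 0.94 in replicate 3, and 1.00, 0.37 and 0.66 in Sonoran replicates 1, 2 and 3. Santa Catalina replicate 1 had saguaro outermost for all 60 members and held the largest gap for 34 of them. Santa Catalina replicate 2 held the largest gap for 0 of 60 and missed the direction for 9. Sonoran replicates 2 and 3 missed it for 11 and 10 members, replicate 2 mainly among the members below (9 of 30) and replicate 3 mainly among those above (7 of 30). The saguaro library of Sonoran replicate 2 was the smallest of the series, with 6769906 counts in a range of up to 16115982, and that of Santa Catalina replicate 1 had the lowest TMM factor of the series, 0.68, where the factors were 0.68 to 1.08 on saguaro, 1.16 to 1.62 on prickly pear and 0.765 to 1.07 on lab food. The part of depth and scaling in the strain differences was not tested. Without Santa Catalina replicate 1, the median difference of the members above fell to 0.69 (log2), against 0.91 with all strains, and that of the members below was -0.81, against -0.91 with all strains; every one of the 60 still had its saguaro mean outside the other means.

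**Figure D3:**
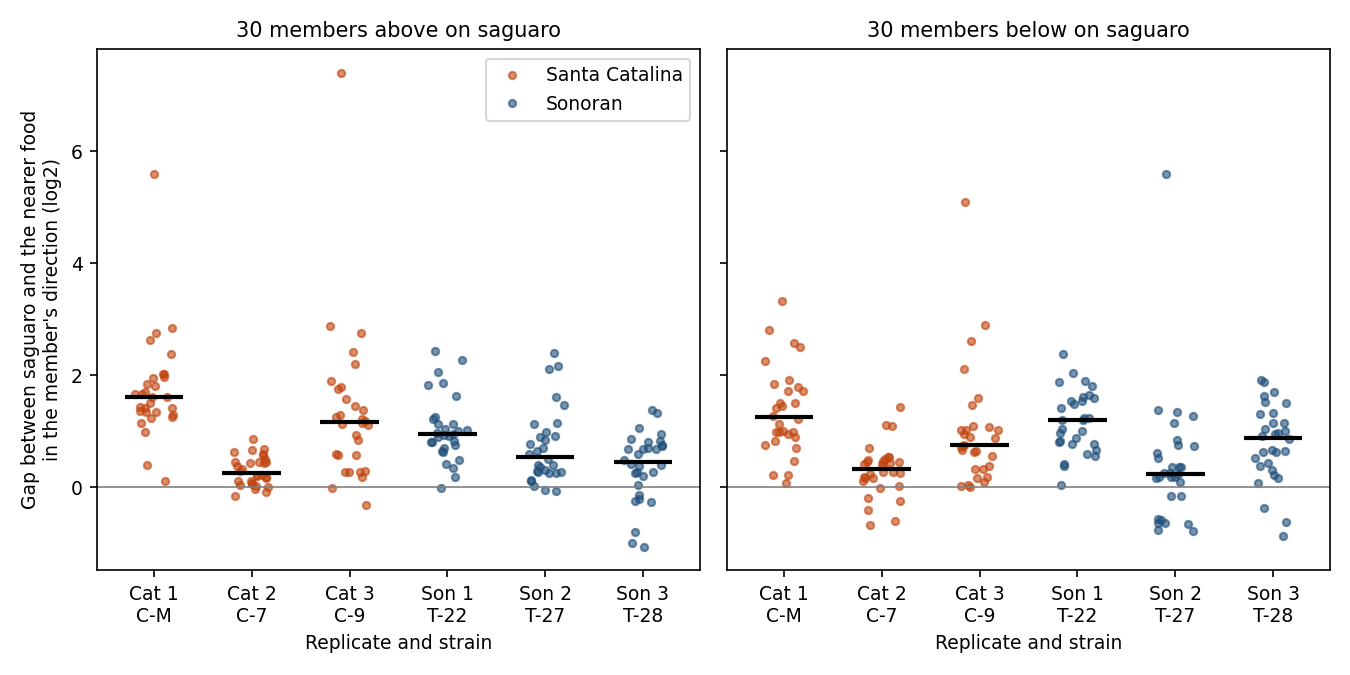
Gap in log2(normalised count + 8) between saguaro and the nearer other food, in the member's own direction, for the 30 members above (left) and the 30 below (right) in each of the 6 strains. Each point is a member, the black bar is the median, and points under 0 are members whose saguaro level was not outermost in that strain. The medians are highest in Santa Catalina replicate 1, at 1.61 above and 1.25 below.

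Together the members made up a small share of the counts. Those above held 0.646% ± 0.0901 of all counts on saguaro, 0.409% ± 0.0596 on prickly pear and 0.291% ± 0.0392 on lab food, and those below held 0.0723% ± 0.0292 on saguaro, 0.281% ± 0.0988 on prickly pear and 0.160% ± 0.0474 on lab food (SD, n = 6 each). That saguaro lay apart in these shares follows from the choice of members. The shares are of raw library totals, without scaling factors, and members with many counts weigh most in them. Their order of prickly pear and lab food is thus not that on the scale of the rule, and nothing is read from it. On the scale of the rule, prickly pear lay below lab food for 37 of 60 members and above it for 23. The median difference was -0.09 (log2), with a range from -0.74 to 0.77. Among the members above, prickly pear was the lowest food for 21 of 30. Once the mean of each food had been removed, pairs of members above had a median correlation of 0.325 over the 18 libraries, pairs below 0.311, and pairs of a member above with a member below -0.249. These libraries share strains and scaling, and the members were chosen from the same values by their direction on saguaro. No such correlation was computed for other features, so the correlations are a description and nothing is read from them.

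The members lay in 57 assembly components. Of the 60, 37 were the only feature of their component, and 3 components held 2 members each. A component groups sequences that the assembler joined, such as versions or near-identical copies of a gene, so the counts of its features may have been divided between them. comp38134_c1 and comp38134_c2 ran together, with r = 0.993 over the 18 libraries and a ratio of comp38134_c2 to comp38134_c1 between 0.835 and 0.981. comp38134_c2 averaged 92.4 ± 31.4 CPM on saguaro, against 44.1 ± 8.75 CPM on prickly pear and 46.7 ± 11.2 CPM on lab food, and comp38134_c1 averaged 99.6 ± 34.5 CPM on saguaro, against 48.9 ± 10.8 and 52.2 ± 11.5 CPM on prickly pear and lab food (SD, n = 6 each). The 2 members followed nearly the same course, while comp38134_c0, the remaining feature of their component and named after its values were seen, did not: saguaro minus prickly pear was -0.09 and saguaro minus lab food -0.07 (log2). comp37571_c1 and comp37571_c2, both below, had r = 0.923. comp37571_c2 averaged 5.62 ± 2.64 CPM on saguaro, against 13.7 ± 5.55 CPM on prickly pear and 9.68 ± 2.28 CPM on lab food (SD, n = 6 each), while comp37571_c1 had as few as 5 counts in a saguaro library. The third shared component, comp39270, held comp39270_c2 and comp39270_c3, both above, which ran together less closely (r = 0.782 over the 18 libraries). Some features of members' components were not members themselves. Of 18 such features beside members below, 13 also had their saguaro mean below both other foods and 0 above, where 30.3% of the 15842 unrelated features lay below. Of 27 beside members above, 9 lay above and 8 below, where 3174 of the 15842 unrelated features lay above. These relatives can share reads with the members and several share a component, so no test was made.

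The rule did not use the population labels, and the members were tested for a difference between Santa Catalina and Sonoran larvae. The rule did use the same libraries, and a member can enter through strains of one population. The tests on saguaro, of the response, and over the 3 foods, whose sums hold the saguaro counts, are thus not fully independent of the choice. The same holds for the tests on prickly pear and on lab food, since the rule also used the values on these foods. Over the 3 foods, with counts summed to 3 strains against 3, comp39297_c4 was lower in Santa Catalina and the other 59 members did not pass the test: 1 of 60 was called (edgeR quasi-likelihood test, adjusted p below 0.05 over 13129 features), where 0.0914% of all features were called. At an unadjusted p under 0.05 there were 8 of 60 members, 13.3%, beside 11.9% of all features, a share near the background. DESeq2 called 1 of 60, where it called 1.43% of all features. On saguaro alone, 1 of 60 was called, again comp39297_c4, where 0.136% of 12514 features were called, and 8 of 60 had an unadjusted p under 0.05, beside 5.95% of all features. DESeq2 called 1 of 60 on saguaro, where it called 0.333% of all features. On prickly pear 0 of 60 members passed with edgeR, where 0.04% of all features did, and 3 had an unadjusted p under 0.05, beside 3.16% of all features. DESeq2 called 0 of 60 on prickly pear, where it called 0.214% of all features. On lab food 0 of 60 passed with edgeR (3 at an unadjusted p under 0.05, beside 17.6% of all features), where 0.128% of all features did, and 3 passed with DESeq2, where 3.32% of all features did; comp39297_c4 was among these 3, at a log2 fold change of -1.43 (DESeq2 adjusted p = 0.000342). The single-food p-values take the libraries of a strain on other foods as separate samples in estimating the spread, so they may be too small.

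comp39297_c4 was at 370, 284.6 and 379 CPM on saguaro in Santa Catalina larvae, against 2707, 2465 and 1409 CPM in Sonoran larvae. On prickly pear it was at 279, 250.5 and 306.6 CPM in Santa Catalina, against 474, 706 and 344 CPM in Sonoran. On lab food it was at 248, 284.3 and 280.4 CPM in Santa Catalina, against 557, 889 and 772 CPM in Sonoran. The populations did not overlap on any food, and the 9 Santa Catalina libraries covered a narrow range, from 248 to 379 CPM. Lack of overlap on saguaro or between strain means over the 3 foods was a condition for naming it. No share over all features was computed, so nothing is read from the lack of overlap. On saguaro the mean was 344.5 ± 52.2 CPM in Santa Catalina and 2194 ± 690 CPM in Sonoran (SD, n = 3 each; log2 fold change -2.67, SE 0.30, adjusted p = 0.000764, edgeR). Over the 3 foods the log2 fold change was -1.75 (SE 0.17, adjusted p = 0.0291, edgeR), on lab food -1.45 (SE 0.29, adjusted p = 0.0787, edgeR) and on prickly pear -0.87 (SE 0.28, adjusted p = 1, edgeR). With only the 6 saguaro libraries in the fit, the saguaro difference kept its size and lost its call (adjusted p = 0.149, edgeR), and over the 3 foods the call was lost on leaving out any of Santa Catalina replicates 1, 2 and 3 and Sonoran replicates 1 and 2 (adjusted p from 0.051 to 0.131, edgeR), and held without Sonoran replicate 3 (adjusted p = 0.0179, edgeR).

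This transcript entered the set mainly through the Sonoran strains. For it, the choice and the tests on saguaro, over the 3 foods and of the response rest partly on the same values. Its saguaro mean was 4.32 times the prickly pear mean and 2.97 times the lab food mean in Sonoran larvae, and 1.24 and 1.27 times those means in Santa Catalina larvae. The gap between saguaro and the nearer food was 2.27, 1.48 and 0.82 (log2) in Sonoran replicates 1, 2 and 3, and 0.41, -0.04 and 0.29 in Santa Catalina replicates 1, 2 and 3. The difference between the populations in the response to saguaro, taken against the mean of the other foods, was -1.51 (log2, Santa Catalina minus Sonoran; SE 0.35), which did not pass the edgeR test (unadjusted p = 0.000573, adjusted p = 0.382; adjusted p = 0.367 with strain as a replicate block) and passed that of DESeq2 (adjusted p = 0.0419). The other features of its component did not pass the test on saguaro: comp39297_c0, comp39297_c1, comp39297_c2 and comp39297_c5, named after their values were seen, had log2 fold changes between the populations on saguaro of 0.38, -0.28, 0.10 and 0.18, with adjusted p-values of 0.768, 0.826, 0.855 and 0.795 (edgeR). With the 5 features summed, an alternative chosen after seeing the data, the difference on saguaro was -2.17 (adjusted p = 0.00204, edgeR) and that over the 3 foods -1.35 (adjusted p = 0.0577, edgeR).

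**Figure D4:**
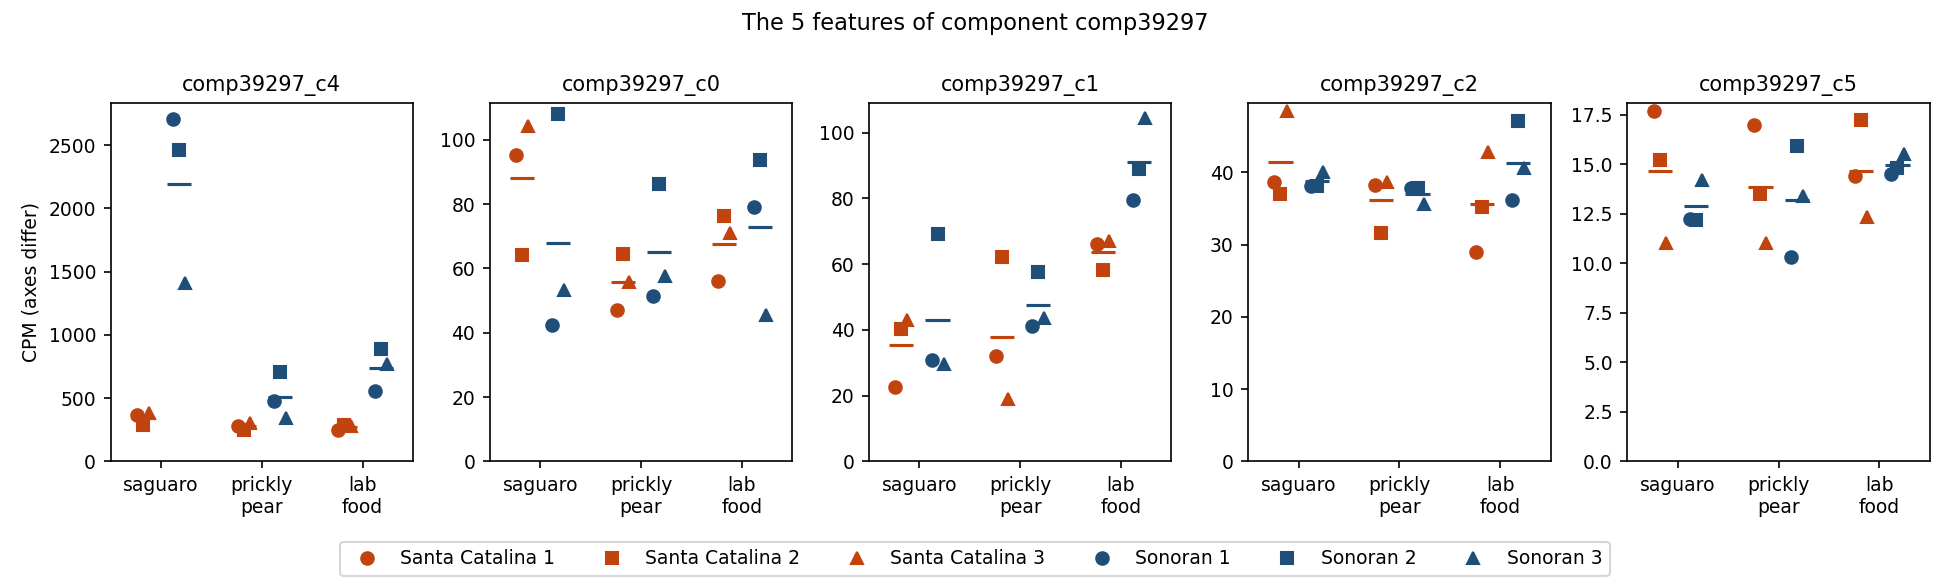
CPM of the 5 features of component comp39297 on saguaro, prickly pear and lab food, with Santa Catalina in orange and Sonoran in blue; the vertical axes differ, each starting at 0, and bars are means of 3 libraries. The Sonoran saguaro libraries of comp39297_c4, at 1409 to 2707 CPM, stand above all its other libraries, and the other 4 features show no such separation.

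For the other members the saguaro responses of the populations were compared in the same way. The rule required a shared direction in at least 5 of 6 strains, so it limits opposite responses, though not differences in size. No member passed the test of a difference in response with edgeR (0 of 60; 4 at an unadjusted p under 0.05, beside 12.4% of all features), and DESeq2 called 1 of 60, comp39297_c4, where 0% of all features passed with edgeR and 0.0565% with DESeq2. On the scale of the rule, the response was larger in Santa Catalina than in Sonoran for 27 of the 30 members above. Their medians were 1.36 in Santa Catalina and 0.89 in Sonoran (log2). Among the members below it was larger in Santa Catalina for 22 of 30, with medians of -1.13 and -0.94. The rule chose members by their saguaro distance, and Santa Catalina replicate 1 held the largest gap for 34 of 60. No share over all features was computed on this scale, so these counts are not read as a population result. In the edgeR fit fewer members below had a larger drop in Santa Catalina: the difference in response was negative for 18 of 30. The median was -0.06 (log2). This difference was positive for 40.0% of the members below, beside 48.7% of all features, a share near the background. It was negative for 13 of 30 without Santa Catalina replicate 1 (median 0.02), 11 of 30 without Sonoran replicate 2 (median 0.19) and 15 of 30 without Santa Catalina replicate 3 (median -0.01). It was negative for 27 of 30 without Santa Catalina replicate 2 (median -0.41). With these strains left out in turn, the difference was positive for 46.0% to 49.7% of all features. On saguaro itself the fitted level was higher in Santa Catalina for 26 of the 30 members above and for 7 of the 30 below, beside 43.4% of all features. Without Santa Catalina replicate 1, whose median gap was the widest, these counts were 20 of 30 and 19 of 30, beside 48.2% of all features. Among the members below the count was also 14 of 30 without Sonoran replicate 2 and 7 of 30 without Sonoran replicate 1. It was 4 of 30 without Santa Catalina replicate 2. It was 11 of 30 without Santa Catalina replicate 3, and 11 of 30 without Sonoran replicate 3. With these strains left out in turn, the level was higher in Santa Catalina for 40.9% to 46.7% of all features. With library totals in place of TMM factors, which moved the median of all features to -0.33 (log2), against -0.06, the counts were 21 of 30 above and 5 of 30 below. The fitted difference in response was positive, that is higher in Santa Catalina, for 26 of the 30 members above with TMM factors, beside 48.7% of all features, and for 18 of 30 without Santa Catalina replicate 1. Library totals moved the median over all features to -0.43 (log2), against -0.02 with TMM factors, and that over the members above to -0.02, against 0.45, so both medians moved by a like amount. With library totals the difference was positive for 14 of the 30 members above, beside 17.0% of all features.

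**Figure D5:**
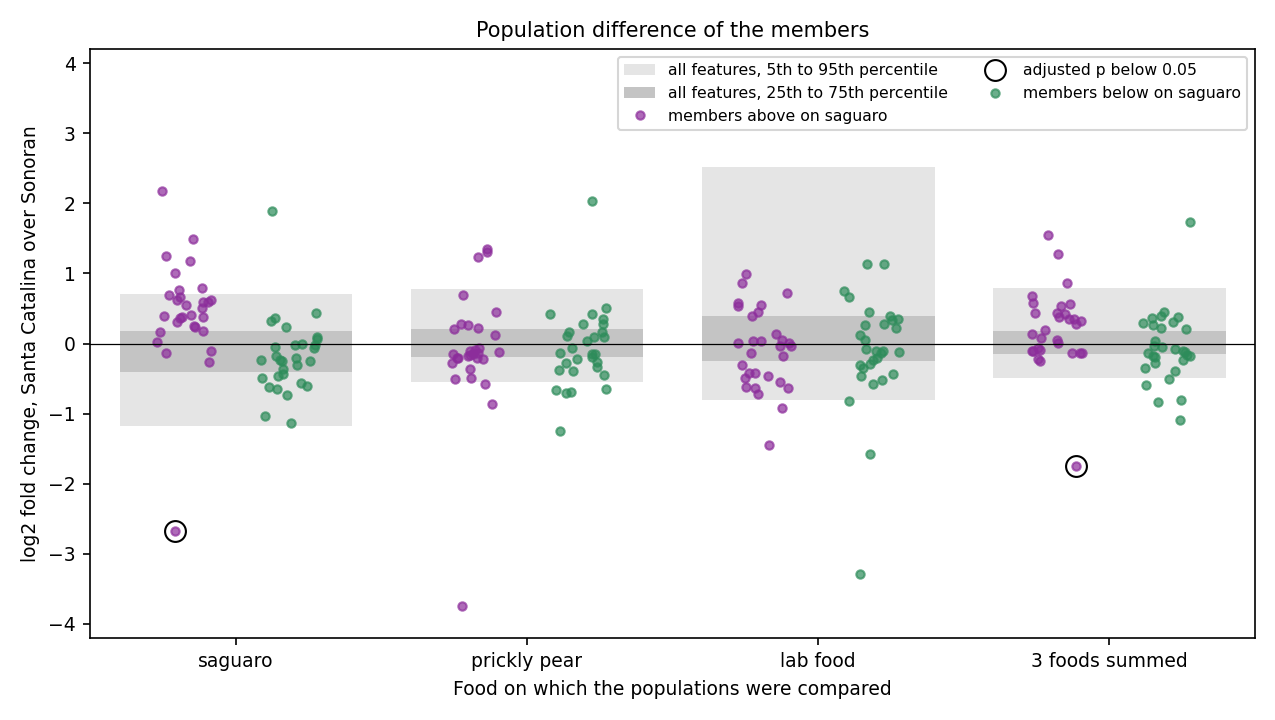
Log2 fold change of Santa Catalina over Sonoran for the 60 members on saguaro, prickly pear, lab food and the 3 foods summed; each point is a member, purple for those above and green for those below on saguaro. Grey bands give the 25th to 75th and 5th to 95th percentiles of all features tested, and rings mark an adjusted p below 0.05, which only comp39297_c4 reached, at -2.67 on saguaro and -1.75 over the 3 foods.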

How the data were processed

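The deposited values are whole-number counts per assembled gene. Per the series' design text, the authors built a de novo assembly (Trinity) and counted per gene, with isoform sequences pooled. The counting program and any filter were not given in the sources used here. edgeR is named in the submitters' processing notes. Every library was divided between both sequencing lanes, per the labels' protocols. Library totals ran from 6769906 to 16115982 counts.

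The members and the rules for naming features were chosen with earlier results of these data known. Populations were compared in R 4.3.3 with edgeR 4.0.16 (filterByExpr, TMM, quasi-likelihood F test, Benjamini-Hochberg adjustment over all features, called below 0.05). All 60 members passed the filter. A model of 6 group means over 18 libraries served the comparisons on single foods and the difference in response; counts summed per strain served that over the 3 foods. Standard errors were derived from the fold change and F (|log2 fold change| over the root of F). The fits were also run on simulated counts, drawn separately for each library without a strain effect. Those runs cannot speak to the links between libraries of a strain. DESeq2 1.42.0 was an alternative.

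Named by rule were the 2 farthest members in each direction, called members with at least 5 CPM in the higher population and no overlap between the populations, the member with the most counts in each direction, members of up to 2 shared components, and the features at the edge of the set.

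The labels give each strain on all foods, so strain links libraries between foods. Deviations from group means had a median correlation of 0.133 within strains, from -0.243 to 0.636, over 0.1 in 12 of 18 pairs.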

Additional observations from a re-analysis of the deposited data

Results flagged for a closer look

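Of 33 sets of 6 libraries (11 named members on 3 foods), 1 held a library far from the rest, where about 1 in 20 is flagged by chance. comp37571_c2 on lab food was at 5.29 CPM in Santa Catalina replicate 1, against 9.61 to 11.8 CPM in the other 5 libraries, a gap of 0.662 of the whole range.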

How the results depend on the processing

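Of the 60 members, 58 were chosen again with TMM factors, 52 and 42 with an offset of 32 and of 2 in the logarithm, 49 with a limit of 0.5 between lab food and prickly pear, and 25 with library totals alone, where the median of all features for saguaro minus prickly pear moved to -0.60, against -0.09. With 1 strain left out, 37 to 48 were chosen again, the fewest without Santa Catalina replicate 3. The members' medians ran from 0.69 to 0.98 above and from -1.11 to -0.81 below with 1 strain left out, and were 0.63 and -0.99 with library totals. All 60 kept their saguaro mean outside both others in each of these settings. The rule, which required saguaro outermost in at least 5 of 6 strains, largely fixed this outcome, so nothing is read from it. The count of members differing between the populations over the 3 foods was 0 or 1 with 1 strain left out and 0 with component comp39297 summed; that on saguaro was 0 in the 6 libraries of that food alone and 1 in the 11 other alternatives; that on lab food was 3 with DESeq2 and 0 or 1 with 1 strain left out; and the difference in response gave 1 with DESeq2. For comp39297_c4 the log2 fold change ran from -2.93 to -2.17 on saguaro (11 of 12 alternatives called) and from -1.89 to -1.35 over the 3 foods (5 of 11 called). With strain as a replicate block, the difference in response gave 0 calls, as without it; a replicate number links no strain of one population to the other. Members with few counts, such as comp37571_c1 with 5 in a library, are limited by depth.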
